A study of Mus musculus with 12 samples.

Results

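A set of 10 genes that write or erase DNA methylation, make a cofactor for its removal or belong to the Asxl family was followed across bone marrow cultures with and without excision of Bcor. The set was given as a list of names: the DNA methyltransferases Dnmt1, Dnmt3a and Dnmt3b, the methylcytosine dioxygenases Tet1, Tet2 and Tet3, the isocitrate dehydrogenases Idh1 and Idh2, and the chromatin regulators Asxl1 and Asxl2. The rule uses names only, but the members were chosen with earlier results of these data known. All probes that the platform annotation assigns to these symbols were taken, which gave 17 of the 45281 probes on the array and 9 of the 10 genes. No probe is named Tet2 in the annotation used here, so Tet2 was not analysed here. Of the 17 probes, 11 were detected (a detection p-value under 0.05 against the negative controls of the array) on at least 3 of 12 arrays, and these 11 represent 7 genes. Dnmt3a and Tet3 had 3 probes each and none passed.

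RNA was measured on 1-colour Illumina bead arrays in 4 groups of 3 arrays. Every sample came from the marrow of mice aged 3 months that have 1 Bcor allele (Bcor Fl/Y), in which loxP flanks exons 9 and 10, so the controls hold the unexcised floxed gene. Cells were grown with 50 ng/ml SCF, 25 ng/ml IL6, 10 ng/ml IL-3 and 20% serum, received an empty retrovirus (control) or a retrovirus that carries Cre recombinase (Cre), were selected with puromycin and passed through Ficoll. The controls received no Cre, so an effect of Cre itself and one of the excision cannot be told apart. The CD34+ groups were sorted from such cultures by flow cytometry and hold 2 marrows per arm, number 2 on 2 repeat arrays (called F2-1 and F2-2 here) and number 4 on 1 array (F4). The BM groups are unsorted cultures with repeats 1 to 3, for which no label states a separate animal. P-values therefore measure the spread between these arrays only. Because the marrow numbers are given for the sorted samples alone, population and any difference in culture or array run cannot be told apart.

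In blood formation, Dnmt1 copies methylation onto newly made DNA, Dnmt3a and Dnmt3b add it to unmethylated sites, and the Tet enzymes oxidise it as a step towards removal. Tet enzymes need 2-oxoglutarate, which the cytosolic enzyme Idh1 and the mitochondrial enzyme Idh2 make from isocitrate. Asxl1 and Asxl2 are partners of the deubiquitinase Bap1, which takes ubiquitin off histone H2A, a mark laid down by Polycomb complexes that include the BCOR complex. In humans, DNMT3A, TET2, IDH1, IDH2, ASXL1 and BCOR are recurrently mutated in myeloid leukaemia.

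The promoters of Dnmt3b, Idh1 and Idh2, on which the results below turn, are shown because the set concerns methylation of such sites. RefSeq (build GRCm38.p6) gave 15 start sites for all 10 genes. Each line holds the 250 bases before the start site, 5′ to 3′ on the strand of the gene, with every CpG, the site of DNA methylation, in capitals.
Dnmt3b, chr2:153649199-153649448, plus strand: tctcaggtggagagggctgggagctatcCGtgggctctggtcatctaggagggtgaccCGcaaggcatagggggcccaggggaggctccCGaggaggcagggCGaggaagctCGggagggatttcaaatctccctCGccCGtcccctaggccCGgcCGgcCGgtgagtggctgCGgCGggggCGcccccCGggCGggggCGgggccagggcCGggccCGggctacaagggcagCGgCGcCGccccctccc
Idh1, chr1:65186480-65186729, minus strand: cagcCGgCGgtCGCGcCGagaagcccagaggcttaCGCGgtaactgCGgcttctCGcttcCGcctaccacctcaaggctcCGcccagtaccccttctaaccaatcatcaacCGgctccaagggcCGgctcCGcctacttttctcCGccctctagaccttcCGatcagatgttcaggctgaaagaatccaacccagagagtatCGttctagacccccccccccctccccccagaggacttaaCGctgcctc
Idh2, chr7:80115351-80115600, minus strand: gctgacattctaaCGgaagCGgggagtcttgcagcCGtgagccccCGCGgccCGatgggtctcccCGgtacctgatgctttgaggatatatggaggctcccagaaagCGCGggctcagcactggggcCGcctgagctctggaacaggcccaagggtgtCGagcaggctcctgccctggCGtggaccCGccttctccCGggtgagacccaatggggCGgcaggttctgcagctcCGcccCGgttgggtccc
These windows hold 21, 18 and 17 CpG, while the median over 32841 mouse promoters of the same length was 6 and the upper quartile 16. The second listed start of Idh1, not shown, holds 22. Over the 15 windows the count ran from 2, at the first listed start of Dnmt1, to 51, at Tet2. The letters TTTCGCGC or TTTCCCGC, on either strand, which resemble sites of the cell cycle factor E2F, stood in 1.15% of all promoters and in 1 of the 15 windows, the third listed start of Dnmt1. In gene order, Asxl1 and Dnmt3b are near neighbours on chromosome 2, with the protein-coding genes Nol4l and Commd7 between them, and Asxl2 and Dnmt3a on chromosome 12, with Dtnb between them.

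Levels are log2 normalised intensities, changes are log2 differences ± SE, and the test throughout was limma with Benjamini-Hochberg adjustment over all 19274 detected probes at a threshold of 0.05. Between 15571 and 17742 probes were detected per array, and precision is limited by how many arrays there are. Levels of different probes were not set against each other. As a check of the labels, Bcor itself fell in BM Cre cultures by 1.15 ± 0.24 on one probe (adjusted p = 0.00643) and by 1.27 ± 0.22 on the other (adjusted p = 0.00207), with all 3 Cre arrays below all 3 controls. In CD34+ cells the difference was −0.48 ± 0.24 (adjusted p = 0.459). Within marrow number 2 it was −0.74, and on the single pair of number 4 it was 0.03, so the array labelled CD34+ Cre of number 4 showed no lower Bcor. Where the Bcor probes lie relative to the excised exons is not annotated in the tables used here. The Cd34 probe averaged 10.26 in CD34+ control and 10.17 in BM control cells. With Cre it ran from 9.67 to 10.62 in CD34+ and from 8.66 to 9.42 in BM cells, which do not overlap. The mast cell protease gene Cpa3 stood above 15.2 in all 4 groups on its 2 brightest probes.

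Of the 7 genes, 2 rose with Cre in the BM cultures, Dnmt3b and Idh1, and none fell. Over all 10315 genes tested by their brightest probe, 15.9% passed in this comparison, 8.33% upward and 7.55% downward. The median log2 difference was 0.57 over the 7 genes and −0.07 over all genes. The 7 include Tet1, at 0.60 and near background, which would not have passed the filter without the BM Cre arrays. In CD34+ cells none of the 7 passed by its brightest probe, where 0.717% of all genes did (0.446% upward and 0.271% downward), and none of these probes had an unadjusted p under 0.05 with limma, the lowest adjusted p being 0.77. Their median difference there was −0.03.

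**Figure D1:**
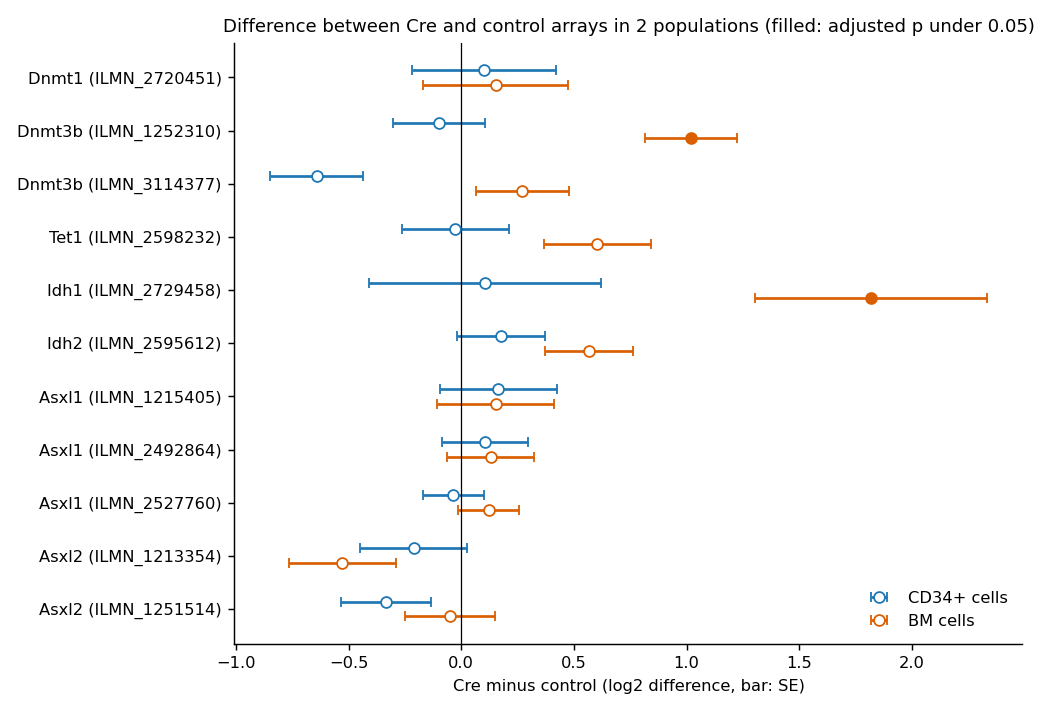
Log2 difference between Cre and control arrays (horizontal axis) for the 11 detected probes (vertical axis), in CD34+ cells (blue) and BM cells (orange). Points are differences of group means over 3 arrays, bars are SE and filled points passed the adjusted p threshold of 0.05. The filled points are the brighter Dnmt3b probe at 1.02 and Idh1 at 1.82, both in BM cells.

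Dnmt3b, one of the pair of enzymes that methylate DNA at new sites, had the lowest adjusted p of the 7 genes in the BM Cre comparison. Its brighter probe (ILMN_1252310) read 9.29, 9.31 and 9.06 on the BM control arrays and 10.48, 10.39 and 9.85 on the BM Cre arrays. All 3 Cre arrays lay above every control. The rise was 1.02 ± 0.20, or 2.03-fold (adjusted p = 0.00476). The CD34+ control arrays F2-1, F2-2 and F4 read 9.14, 9.46 and 9.07, and the CD34+ Cre arrays 9.26, 9.29 and 8.82. These 6 values overlapped, with a difference of −0.10 ± 0.20 (adjusted p = 0.897). The effects in the 2 populations differed by −1.12 ± 0.29 (CD34+ minus BM, adjusted p = 0.0457), where 5.56% of all genes passed, 4.08% in this direction and 1.48% in the other. That call held in 7 of 22 alternatives. It was lost when the 2 repeats of marrow number 2 were averaged to 1 sample (adjusted p = 0.136) or held as a random block (adjusted p = 0.153), both chosen after seeing the data. It was also lost when any 1 of 10 of the 12 arrays was left out (adjusted p from 0.0568 to 0.127). Control cells of the 2 populations were level, at 9.22 ± 0.21 in CD34+ and 9.22 ± 0.14 in BM (SD over 3 arrays, which in CD34+ cells hold 2 marrows).

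The second Dnmt3b probe (ILMN_3114377) was dim and gave another pattern. It read 5.99, 5.27 and 5.53 in CD34+ control and 4.99, 4.89 and 4.98 in CD34+ Cre, where it was not above background on any array. All 3 Cre arrays lay below the controls, with an unadjusted limma p of 0.00857 and an adjusted p of 0.24. In BM cells it read 5.17, 4.97 and 5.20 without Cre, and 5.58, 5.56 and 5.02 with Cre (adjusted p = 0.45). Which transcripts each probe covers is not annotated here.

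Dnmt3l, the catalytically inactive partner that stimulates the Dnmt3 enzymes, was on a list of maintenance and reader genes described beside the set. It was not above background on any of the 9 arrays of the other groups, with levels from 4.48 to 4.84 on its brighter probe (ILMN_1250149). The BM Cre arrays read 8.05, 8.17 and 7.49, which is scanner signals of 349.2, 315.0 and 221.1 against at most 7.5 elsewhere. It was at least 5.94-fold higher in BM Cre than in BM control cells (log2 difference 3.22 ± 0.18, adjusted p = 1.59e-07). Its second probe (ILMN_3112268) also stood above background on the 3 BM Cre arrays alone, at 7.78, 8.09 and 7.40. The Cre effects in the 2 populations differed by −3.11 ± 0.26 (adjusted p = 1.22e-05). Both probes passed the filter through the BM Cre arrays alone, so the filter itself fixed that they differ. The authors' deposited table lists both at its floor of 24 on all 12 arrays.

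Dnmt1, the maintenance enzyme, did not pass in either Cre comparison. It read 11.05, 10.91 and 10.89 in BM control and 11.12, 11.34 and 10.85 in BM Cre cells, which overlap (difference 0.15 ± 0.32, adjusted p = 0.825). In CD34+ cells it read 10.53, 10.25 and 10.02 without Cre and 10.96, 10.73 and 9.40 with Cre (difference 0.10 ± 0.32, adjusted p = 0.94). The interval of that difference ran from −0.60 to 0.80. The marrows moved apart, by 0.46 in number 2 and by −0.62 on the single pair of number 4. The mean level of 28 DNA replication genes was 9.82, 9.77 and 8.94 on the CD34+ control arrays and 10.19, 10.24 and 8.82 on the CD34+ Cre arrays, with number 4 lowest in both arms, as for Dnmt1. On the BM control arrays the mean of the replication genes read 9.95, 9.95 and 10.02, an order that Dnmt1 did not follow. On the BM Cre arrays it read 10.43, 10.62 and 9.95, the same order as Dnmt1. The part of replication genes in the Dnmt1 values was not tested.

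**Figure D2:**
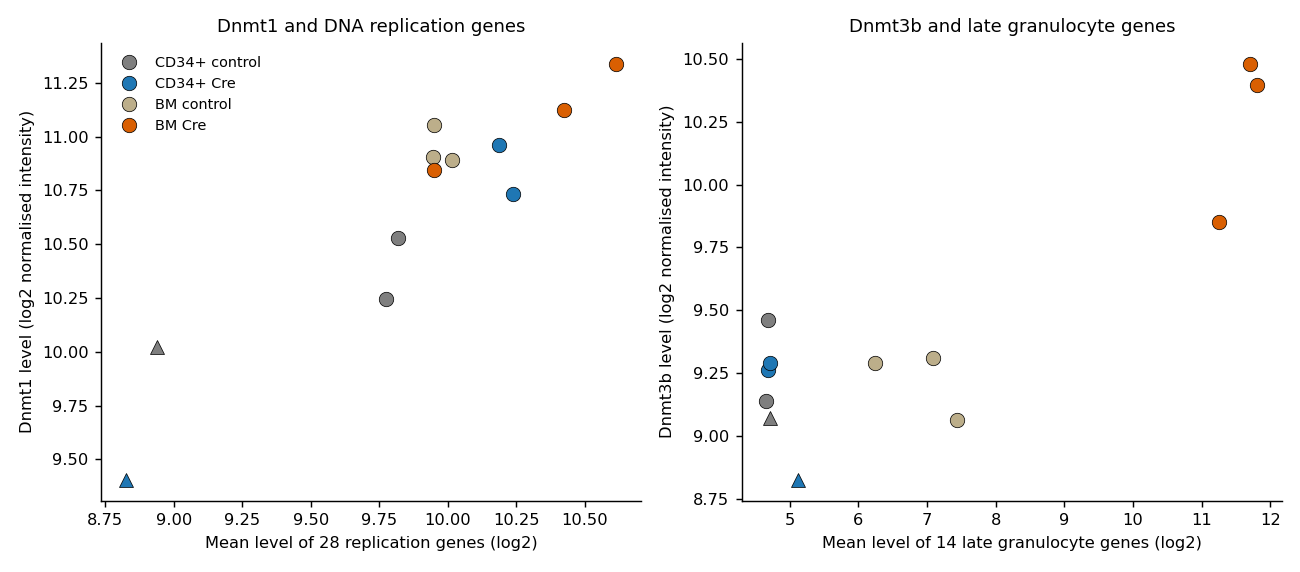
Left, level of Dnmt1 against the mean level of 28 DNA replication genes, and right, level of the brighter Dnmt3b probe against the mean level of 14 late granulocyte genes, all as log2 normalised intensity. Each symbol is 1 of 12 arrays, coloured by group, with triangles for marrow number 4. The number 4 arrays are lowest on both axes at left, and the 3 BM Cre arrays stand apart at right, with late granulocyte means from 11.25 to 11.81.

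Tet1 was close to the detection limit. Its probe was above background on 1 CD34+ control array, no CD34+ Cre array, no BM control array and all 3 BM Cre arrays. The BM control arrays read 4.92, 4.78 and 4.90, and the BM Cre arrays read 5.62, 5.30 and 5.48, all higher. This difference of 0.60 ± 0.24, at least 1.10-fold, missed the threshold (adjusted p = 0.119), and passed when the BM arrays were fitted alone (adjusted p = 0.0129). The probe would not have passed the filter without the BM Cre arrays. The filter itself thus favoured a rise there, and no conclusion is drawn from either p-value. The CD34+ arrays read 5.54, 5.33 and 4.58 without Cre and 5.40, 5.20 and 4.77 with Cre (adjusted p = 0.983), with number 4 lowest in each arm. The 3 probes of Tet3 gave no array above background among 36 values (lowest detection p 0.110), and neither did the 3 probes of Dnmt3a (lowest detection p 0.384). Scanner signals of the Dnmt3a probes ran from −20.8 to 0.18 after background subtraction, and those of Tet3 from −15.3 to 18.6. Dnmt3a and Tet3 were thus not detectable with these probes.

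Idh1, the cytosolic isocitrate dehydrogenase, showed the largest rise of the 7 genes in BM cultures. It read 10.29, 9.48 and 10.08 on the control arrays and 11.54, 11.76 and 12.001 on the Cre arrays. All 3 Cre arrays lay above all 3 controls, by 1.82 ± 0.51 or 3.53-fold (adjusted p = 0.0338). With the repeat number as a block, the same rise had an adjusted p of 0.0589, and it missed the threshold when any 1 of the 6 BM arrays was left out (adjusted p from 0.0604 to 0.125). In CD34+ cells Idh1 read 10.27, 10.28 and 8.65 without Cre and 10.55, 10.39 and 8.58 with Cre (difference 0.11 ± 0.51, adjusted p = 0.964). The interval of the CD34+ difference ran from −1.01 to 1.22. The 2 marrows stood apart, with number 4 minus number 2 at −1.63 in control and −1.89 in Cre cells, which is 3.09-fold and 3.70-fold lower in number 4. Of the 19274 detected probes, 0.659% had number 4 minus number 2 at −1.63 or lower in both arms, the Idh1 value in control cells. The difference between the Cre effects in the 2 populations was −1.71 ± 0.73 (adjusted p = 0.268), and it passed without the 2 number 4 arrays (−1.63, adjusted p = 0.00719), an alternative chosen after seeing the data.

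Idh2, the mitochondrial enzyme, differed between the populations with and without Cre. It read 10.15, 10.05 and 10.03 in CD34+ control and 10.54, 10.37 and 9.85 in CD34+ Cre cells. The BM control arrays read 12.22, 11.94 and 12.13, and the BM Cre arrays 12.99, 12.67 and 12.34. Every BM array lay above every CD34+ array. Idh2 was 4.06-fold lower in CD34+ than in BM control cells (log2 difference −2.02 ± 0.20, adjusted p = 1.12e-05) and 5.32-fold lower in Cre cells (−2.41 ± 0.20, adjusted p = 1.63e-06). Both calls held in all 22 alternatives. With Cre, the BM arrays were all higher than their controls, by 0.57 ± 0.20 (adjusted p = 0.0769), and the CD34+ difference was 0.18 ± 0.20 (adjusted p = 0.77).

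**Figure D3:**
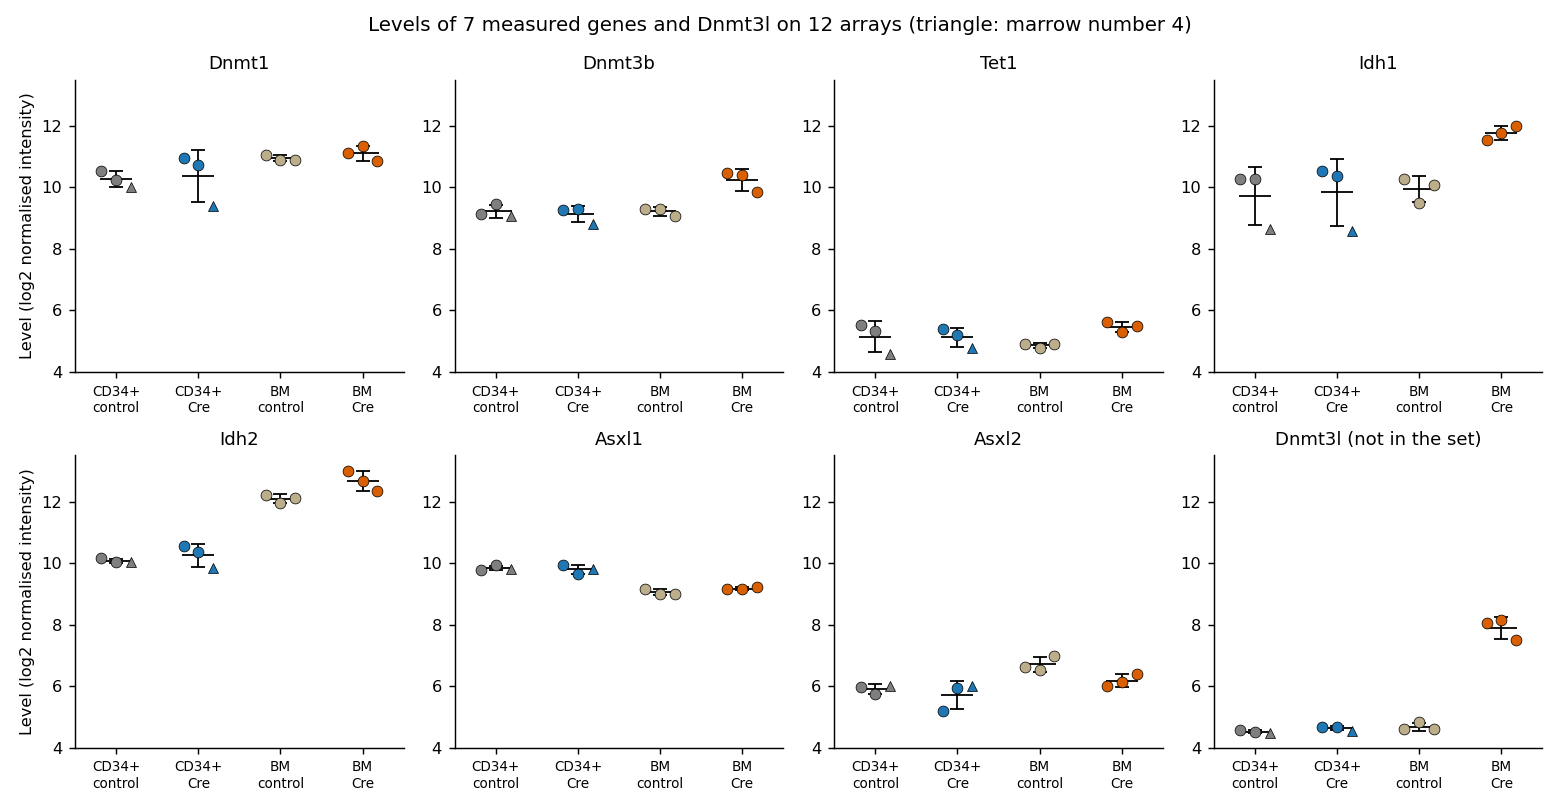
Level (log2 normalised intensity) of the brightest detected probe of 7 genes and of Dnmt3l on each of 12 arrays, by group. Symbols are single arrays, triangles are marrow number 4, and black marks are the group mean ± SD over 3 arrays. Dnmt3b, Idh1 and Dnmt3l are highest on the 3 BM Cre arrays, and Idh2 is higher on all BM arrays than on all CD34+ arrays. Dnmt3l outside BM Cre, and Tet1 outside BM Cre except on 1 array, are at background.

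The BM Cre cultures also differed from their controls in cell type markers, and in bulk RNA fewer cells of a type cannot be told apart from less RNA per cell. All 14 detected late granulocyte genes rose, where 8.33% of all genes rose and 7.55% fell. Their summed intensity was 1913 to 9405 on the control arrays and 115855 to 159638 on the Cre arrays. Of 7 primary granule genes 5 rose, among them Elane, which was not above background on any BM control array. The BM control arrays detected 10 of the 14 and 4 or 5 of the 7, and the BM Cre arrays detected all. For genes that passed the filter only through BM Cre, as Elane did, the filter itself favoured a rise. Monocyte and macrophage genes rose in 5 of 9 cases and erythroid genes in 4 of 7, while 8 of 14 mast cell genes fell and 1 rose. Of 14 listed lymphoid genes 2 passed the filter, and of 10 genes of stroma and endothelium 4 did. Arrays outside BM Cre detected at most 1 of each list and the BM Cre arrays 2 and 3, so their differences are not counted. In CD34+ cells none of the 14 late granulocyte genes passed, and at most 4 were above background on any array. Of the other marker lists there, 1 monocyte gene rose and 1 mast cell and 1 erythroid gene fell. Dnmt3b, Idh1 and Dnmt3l were highest on the same 3 arrays as the late granulocyte genes, whose part in these rises was not tested.

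Asxl1 and Asxl2 did not pass with Cre in either population. The brightest Asxl1 probe (ILMN_2527760) read 9.16, 9.00 and 9.00 in BM control and 9.17, 9.15 and 9.21 in BM Cre cells (difference 0.12 ± 0.13, adjusted p = 0.635). In CD34+ cells it read 9.78, 9.93 and 9.82 without Cre and 9.95, 9.65 and 9.82 with Cre (difference −0.04 ± 0.13, adjusted p = 0.95). The interval of the BM difference ran from −0.17 to 0.41 and that of the CD34+ difference from −0.33 to 0.26. The other Asxl1 probes had adjusted p values of 0.739 or more in both Cre comparisons. The brighter Asxl2 probe (ILMN_1213354) read 6.62, 6.52 and 6.98 in BM control and 6.00, 6.12 and 6.41 in BM Cre cells. All 3 Cre arrays were lower, and the difference of −0.53 ± 0.24 missed the threshold (adjusted p = 0.174).

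Between the populations the Asxl probes disagreed about direction. Among control cells, 3 of the 7 genes passed by their brightest probe, Asxl1 higher and Idh2 and Asxl2 lower in CD34+ cells, where 38.6% of all genes passed, 20.6% higher and 18.1% lower. Of those called genes 53.2% were higher in CD34+ cells, with 70.1% by median scaling, which moved the median of all genes from 0.07 to 0.30, and 38.0% in the authors' value table. By that Asxl1 probe, CD34+ control cells stood 1.72-fold above BM control cells (0.79 ± 0.13, adjusted p = 0.000634). A second Asxl1 probe (ILMN_1215405) read 5.36, 5.49 and 6.50 in CD34+ control against 8.48, 8.24 and 8.41 in BM control cells. It was above background on 1 of 3 CD34+ control arrays, so the folds below set BM levels against values near background. On this probe the CD34+ cells were 6.03-fold lower (−2.59 ± 0.26, adjusted p = 1.42e-05), and 5.99-fold lower with Cre (adjusted p = 8.69e-06). The third probe (ILMN_2492864) was also lower in CD34+ cells, by 1.47-fold (adjusted p = 0.0374, 11 of 21 alternatives). For Asxl2, the brighter probe was 1.73-fold lower in CD34+ control cells (adjusted p = 0.0183), and the dimmer one (ILMN_1251514) was at least 1.39-fold higher (adjusted p = 0.0176), with no BM control array above background. Both Asxl2 calls were lost with marrow number by arm as a random block (adjusted p = 0.171 and 0.0675). No direction between the populations is therefore given for either gene as a whole.

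**Figure D4:**
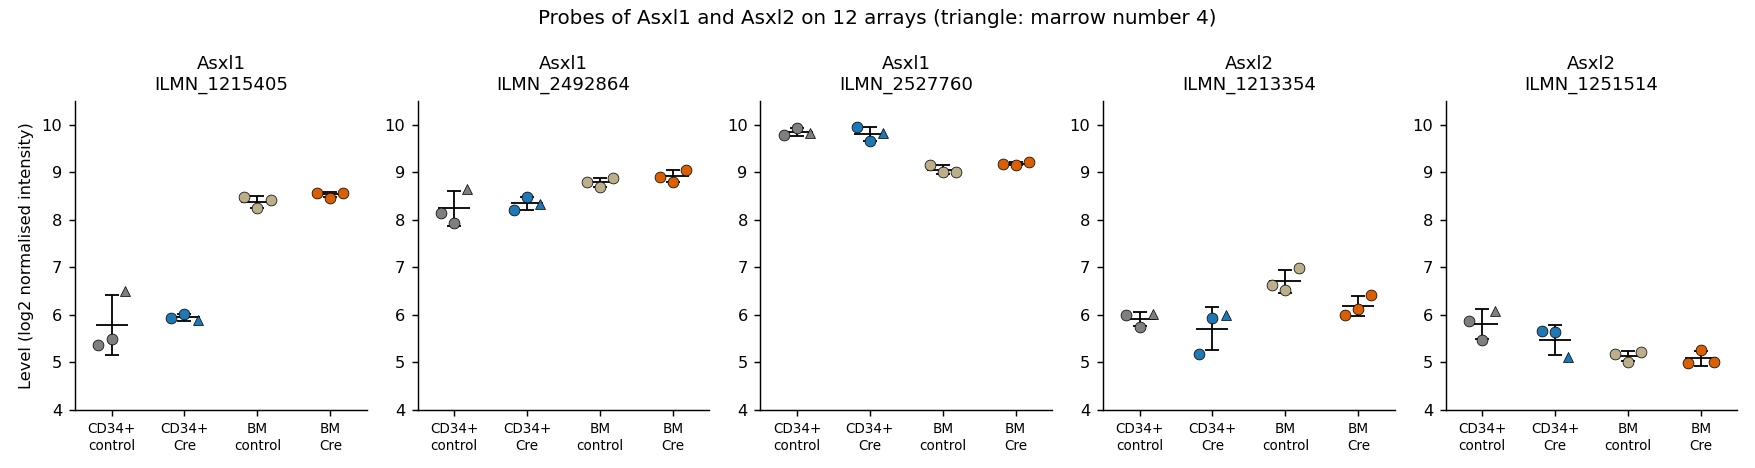
Level (log2 normalised intensity) of 3 Asxl1 probes and 2 Asxl2 probes on each of 12 arrays, by group. Symbols are single arrays, triangles are marrow number 4, and black marks are the group mean ± SD over 3 arrays. ILMN_2527760 is higher on every CD34+ array than on every BM array, while ILMN_1215405 is higher on every BM array.

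With Cre in both populations, 4 of the 7 genes differed, where 49.3% of all genes passed, 27.8% higher and 21.5% lower. Of those called genes 56.4% were higher in CD34+ cells, with 70.2% by median scaling and 40.6% in the authors' value table. Asxl1 was higher in CD34+ cells by its brightest probe, and Dnmt3b, Idh1 and Idh2 were lower. The Asxl1 difference of 0.63 was 0.27 in the authors' value table, where its call was lost (adjusted p = 0.186) and Asxl2 was called instead. The log2 difference was −1.12 ± 0.20 for Dnmt3b (adjusted p = 0.000715) and −1.93 ± 0.51 for Idh1 (adjusted p = 0.00806). The CD34+ Cre arrays all lay below the BM Cre arrays for both genes. The Cre and the population comparisons share their groups, so these values restate the BM Cre levels from another side. Dnmt1 was lower on all 3 CD34+ control arrays than on the BM control arrays, with a difference of −0.69 ± 0.32 (adjusted p = 0.109). That difference passed without the array labelled CD34+ Cre of number 4 (adjusted p = 0.00473) and without both number 4 arrays (−0.56, adjusted p = 0.0127).

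Genes that work beside the set were read as 6 lists, whose counts in BM cultures stand beside the 8.33% of all genes that rose and the 7.55% that fell. Of 12 detected maintenance and reader genes, 1 rose in BM cultures with Cre, Dnmt3l, and 11 did not pass, a share near that of all genes. In the authors' value table none of the 12 rose and 1 fell. Of 16 base excision genes and Tet partners, 4 rose and 2 fell (1 and 0 in the authors' value table). Gadd45b and Gadd45a, stress-induced genes linked to DNA demethylation, rose by 1.75 ± 0.25 (adjusted p = 0.000444) and 0.98 ± 0.27 (adjusted p = 0.0284). The abasic site endonuclease Apex1 rose by 1.37 ± 0.34 (adjusted p = 0.0175) and the cytidine deaminase Apobec1 by 0.85 ± 0.26 (adjusted p = 0.0499). The uracil glycosylase Smug1 fell by 0.62 ± 0.19 (adjusted p = 0.0489) and the DNA ligase Lig3 fell by 0.59 ± 0.16 (adjusted p = 0.0297). Gadd45b passed in all 21 alternatives run, Apex1 in 17, Gadd45a in 15, Lig3 in 14, Smug1 in 9 and Apobec1 in 6. With the repeat number as a block, Apobec1 had an adjusted p of 0.0535 and Smug1 of 0.0733.

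In the 2-oxoglutarate and methyl donor list, 1 of 15 genes rose in BM cultures, Got2, a mitochondrial aminotransferase that makes 2-oxoglutarate from glutamate, by 0.53 ± 0.12 (adjusted p = 0.00943). In the Bap1 complex list, 1 of 7 passed, the methyl-CpG binding domain gene Mbd6, which fell by 0.68 ± 0.20 (adjusted p = 0.038, and 0.0624 with the repeat number as a block). None of the 7 passed in the authors' value table. Of 28 replication genes 1 rose, Dut, which keeps uracil out of DNA, by 1.05 ± 0.25 (adjusted p = 0.0139), with a list median of 0.43. Of 20 listed germline genes that promoter methylation keeps silent in body cells, 4 were detected and none passed in BM cultures, none at an unadjusted p under 0.05 with limma, the lowest p being that of Zfp42 (adjusted p = 0.702). In CD34+ cells none of the genes on the 6 lists passed, and 3 had an unadjusted p under 0.05. One of these was Gadd45b, which was higher on all 3 Cre arrays by 0.99 ± 0.25 (adjusted p = 0.123), and which passed with marrow number as a block (adjusted p = 0.0387). That block counts the 2 repeats of number 2 as separate samples, and with them averaged or as a random block Gadd45b had an adjusted p of 0.527 and 0.56. The Cre effects on Gadd45a differed between the populations by −1.55 ± 0.38 (CD34+ minus BM, adjusted p = 0.0343).

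Between the populations, where 20.6% of all genes were higher and 18.1% lower in CD34+ control cells, the lists gave the following counts. Of the replication list, 7 of 28 were lower in CD34+ control cells and none was higher (1 higher and 7 lower when arrays were scaled by the median), led by the replication clamp gene Pcna with a log2 difference of −3.32 ± 0.21 (adjusted p = 8.39e-07). In the 2-oxoglutarate list 4 were higher and 3 lower, with 6 and 2 by median scaling and 1 and 3 in the authors' value table. Sdhd, a membrane anchor of succinate dehydrogenase, differed by −2.02 ± 0.14 (adjusted p = 1.88e-06), and the cytosolic aconitase Aco1 by −1.94 ± 0.31 (adjusted p = 0.000451). Ahcy, which clears the by-product of methylation reactions, was higher by 1.56 ± 0.22 (adjusted p = 0.000144). Of the reader genes 3 were higher and 2 lower (4 and 1 by median scaling, 2 and 1 in the authors' value table), with the zinc finger reader Zbtb38 higher by 2.15 ± 0.33 (adjusted p = 0.000297). Of the Bap1 complex list 1 was higher, Foxk1, and 2 lower, Hcfc1 and Ogt, the last of which also stands on the Tet partner list. In the authors' value table none of the Bap1 complex list was higher and 3 were lower. Of the 4 detected germline genes none was higher and 1 was lower in CD34+ control cells, with 2 lower by median scaling. The lower gene was Tuba3b, with a log2 difference of −1.95 ± 0.39 (adjusted p = 0.00177). Of the 16 base excision genes and Tet partners, Cxxc4 was higher, at least 1.30-fold, and Ogt was the 1 gene lower, with 3 higher and 1 lower by median scaling.

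By Pearson correlation over the 12 arrays among 10315 genes, given as a description, the 2 genes whose levels ran closest to each member that passed somewhere are named for each. Dnmt3b ran with Rflnb (r = 0.963) and Lin28b (r = 0.959), and Idh1 with Ifi47 (r = 0.973) and Gcat (r = 0.971). Idh2 ran with Ints5 (r = 0.996) and Zbed4 (r = 0.993). Asxl1 ran with Taf11 (r = 0.979) and Eif2b2 (r = 0.978), and Asxl2 with Sgsh (r = 0.945) and Mettl21a (r = 0.943). The arrays share their 4 groups, and the sorted and unsorted groups differ in many genes.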

How the data were processed

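Expression was measured on 12 bead arrays, 3 in each of 4 groups. The scanner export deposited by the authors gives, per the file headers, 1 intensity and 1 detection p-value per probe on every array. Its values, from −32.7 to 70482, show that a background was subtracted and that arrays were not scaled to each other. The authors' own value table, also deposited, holds a linear intensity with a floor of 24. Its method is not given in the sources used here beyond RMA, named without a version or role in the submitters' processing notes. It served as an alternative. Probes were named from the platform annotation, updated through gene identifiers (34885 with 1 symbol, 18 with several and 10378 with none). The members and gene lists were chosen with earlier results of these data known.

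Signals were corrected with normexp from the detection p-values, then quantile normalised, raised by an offset of 16 and put on the log2 scale, all with neqc of limma 3.58.1 in R 4.3.3. A probe was kept if its detection p-value was below 0.05 on 3 or more of the 12 arrays. A limma model (lmFit, eBayes with trend) held 4 group means, with 8 residual and 4.12 prior degrees of freedom, and each of 5 comparisons was adjusted over all 19274 kept probes. A gene was counted by its brightest kept probe. Where a probe was undetected on every array of the lower group, the fold is a bound ("at least"), which sets the brighter mean against the higher of each array's own level and its lowest detected level. All members, Bcor, and list genes past the threshold (at most 4 each way by smallest p, otherwise the smallest p) were named. Cd34, Cpa3 and Elane were named after their values were seen. The procedure was tested on simulated data.

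Same-numbered arrays were checked for pairing. In CD34+ cells the labels give the same marrow in both arms. In BM cells deviations from the group means correlated at 0.121, 0.404 and 0.353 for repeats 1 to 3, each over 0.1, so the numbers were taken as pairs. Pairs entered only the alternatives with a block by marrow or repeat number, and the main model was unpaired. Alternatives were no background correction, median scaling, an offset of 50, other filters, 1 probe per gene, the authors' value table, leaving out each array, blocks by marrow or repeat number, averaged or randomly blocked repeats and each population alone. Leaving out the number 4 arrays, and averaged or blocked repeats outside the CD34+ Cre comparison, were added after seeing the data. Slide as a block was not run, since the headers give no slide. Figures were drawn with matplotlib 3.10.9.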

Additional observations from a re-analysis of the deposited data

Results flagged for a closer look

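The effect of Cre differed between CD34+ and BM cells, by the limma test of the difference itself, for 3 genes of the set and its lists. Over all genes 5.56% passed. Many cell type markers passed as well, of which Elane is described here. In the negative direction these were 13 of 14 late granulocyte, 5 of 7 primary granule, 4 of 9 monocyte and macrophage and 3 of 7 erythroid genes. In the positive direction they were 2 of 14 mast cell genes. Lymphoid and stroma genes are not counted, as above. For Dnmt3b the difference of the effects (CD34+ minus BM) was −1.12 on the log2 scale (adjusted p = 0.0457). It was negative under every alternative run, from −1.31 to −0.97, and past the threshold in 7 of 22. For Dnmt3l the difference was −3.11 (adjusted p = 1.22e-05), and it passed in 21 of 22 alternatives, the exception being the authors' value table, where both probes are listed at the floor. Dnmt3l passed the filter through the BM Cre arrays alone. For Gadd45a the difference was −1.55 (adjusted p = 0.0343), past the threshold in 10 of 22 alternatives, with adjusted p from 0.000616 to 0.244. With the repeats of marrow number 2 averaged it had an adjusted p of 0.202. Gadd45a rose by 0.98 in BM cells and stood at 10.02 ± 0.32 in CD34+ control and 9.45 ± 0.55 in CD34+ Cre cells (SD over 3 arrays of 2 marrows). For Elane, a primary granule protease gene above background on the BM Cre arrays and 1 CD34+ Cre array alone, the difference was −8.43 (adjusted p = 2.25e-08). Elane would not have passed the filter without the BM Cre arrays, so the filter itself favoured this difference. It was named after its values were seen. With Cre, the brighter Bcor probe differed by −1.15 in BM cells and by −0.48 in CD34+ cells (adjusted p = 0.459 with limma). On the single CD34+ pair of marrow number 4 it differed by 0.03, so that Cre array showed no lower Bcor. The part of this in the unequal effects of Cre was not tested.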

How the results depend on the processing

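Over 1202 values of the set's probes under an alternative setting, 1074 kept their direction and side of the threshold, 49 lost a call, 22 gained one, 57 changed sign without a call in either setting and none reversed while called. The Idh2 calls between populations, and those of Dnmt3b and Idh1 among Cre cells, held in all 22 alternatives, and the rise of Dnmt3b in BM cells in 20 of 21 (0.90 to 1.22). It was lost in the authors' value table (adjusted p = 0.0845). Idh1 in BM cells held in 13 of 21. It missed the threshold there too (1.60, adjusted p = 0.187) and in the replicate block fit by repeat number (adjusted p = 0.0589). The cause was not tested. The replicate blocks by marrow or repeat number changed no other call of the members. Among named list genes they changed those of Apobec1, Smug1, Mbd6 and, in CD34+ cells, Gadd45b. The random block lost the Asxl2 call among control cells and the Dnmt3b call for the difference of effects. Among list genes, Idh3b, higher in CD34+ control cells by 0.32, stood at −0.0215 in the authors' value table. The count of members in BM cells (2) was 1 with the repeat number as a replicate block, 0 in the authors' table and 1 to 3 without 1 array. For the difference of effects (1 member) it was 0 with median scaling, with no filter, in the authors' table and with repeats averaged or as a random block, 0 to 1 without 1 array, and 2 without both number 4 arrays. Among Cre cells Dnmt1 passed as well with repeats averaged (−0.98, adjusted p = 0.0446) and with the random block. Among control cells (3 members) it was 5 without both number 4 arrays, and the count of 0 in CD34+ cells was the same in all 25 alternatives. Over all genes, the CD34+ Cre comparison (74) gave 359 with marrow number as replicate block, 210 with number and repeat as replicate block, 11 with repeats averaged, 12 with a random block, 8 with CD34+ arrays alone, 1161 without both number 4 arrays and 25 to 1034 without 1 array. Its share upward was 62.2%, or 72.5% with median scaling. The BM comparison (1638) gave 777 in the authors' table and 1090 to 2263 without 1 array. The difference of effects (574) gave 185 in that table, 308 with repeats averaged, 319 with the random block and 1148 without both number 4 arrays. The population comparisons gave 2483 in that table for control cells (3984) and 3081 for Cre cells (5089). Signals of Tet1, Dnmt3a, Tet3 and the dimmer Asxl2 and Dnmt3b probes lay at or near background. In CD34+ cells so did those of the Asxl1 probe ILMN_1215405 and the brighter Asxl2 probe. Depth was not limiting for the other probes of the members.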

Other observations

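Of 166 probes that were not above background on any CD34+ array and had a scanner signal above 200 on every BM Cre array, 147 are listed at the floor on all 12 arrays of the authors' deposited table. The brighter and the dimmer Dnmt3l probe are among them.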
